A study of Mus musculus with 4 samples.

Results

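The 10 genes of the BCL2 family described here are Bcl2, Bcl2l1, Mcl1, Bax, Bak1, Bcl2l11, Pmaip1, Bbc3, Bid and Bad, chosen by gene name out of 56748 genes in the count table. All 10 were found, each in 1 row, and all passed the filter on low counts. They were measured by bulk RNA sequencing of lung with 4T1 metastases, a mouse triple-negative breast cancer (TNBC) line that was injected into the tail vein of female BALB/cJ mice aged 7 weeks. Of the samples, 2 came from mice given saline, labeled as a PBS control, and 2 from mice given the antibody-drug conjugate (ADC) CD276-DM1 with the gene therapy cmLumiOpto. The ADC couples an anti-CD276 antibody to mertansine (DM1), which blocks microtubules, and cmLumiOpto delivers, from a cfos promoter, a light-gated channel that depolarizes mitochondria. The labels describe harvested tumor cells and the methods of the study dissociated lung tissue with metastases. The labels also give 16 mg/kg of ADC and the abbreviation Olap, whereas the methods give 8 mg/kg and no Olap. Which holds for these samples cannot be told from these sources. The design text of the series gives 3 weeks of treatment. The line carries a luciferase gene, all of the mice bore tumors, and the combination was not sequenced beside its single parts here. As these were bulk samples, fewer cells of a type and less RNA per cell cannot be told apart.

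BCL2 proteins decide whether the outer membrane of mitochondria is opened, the step that commits a cell to intrinsic apoptosis. Bax and Bak1 encode the effectors that form the openings, Bcl2, Bcl2l1 (BCL-XL) and Mcl1 encode the anti-apoptotic members that hold them in check, and the BH3-only members Bcl2l11 (BIM), Pmaip1 (NOXA), Bbc3 (PUMA), Bid and Bad carry stress signals to both. The comparison asks how the RNA of these genes stood after a treatment that combines a microtubule poison with a direct attack on mitochondria. Much of the family is also controlled after transcription, through phosphorylation, cleavage and degradation of the proteins, which RNA does not show.

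Total counts were between 15263375 and 19675436 per sample, so 3 counts, taken as the floor, corresponded to between 0.152 and 0.197 CPM (counts scaled to a common library size by the TMM method of edgeR), for counting error only. The members had between 106 and 10797 counts per sample. The sample titles name tumor in lung, and no marker specific to the tumor was read. Keratin and other epithelial markers (5 genes) summed to between 2450 and 2978 CPM in all 4 samples, and no marker of this list was at 0. This list does not separate tumor cells from lung epithelium. Markers of alveolar type 2 cells (4 of 4), alveolar type 1 cells (4 of 4) and club cells (3 of 3) were higher in both ADC/cmLumiOpto samples than in both saline samples, and those of fibroblasts (5 of 5) were lower. The summed alveolar type 2 markers were 271 to 1400 CPM in the saline samples and 4383 to 5217 CPM in the treated samples, and the summed fibroblast markers were 3461 to 5044 and 1396 to 1717 CPM. ADC/cmLumiOpto replicate 2 stood apart in neutrophil markers (5 genes, none at 0), with 7828 CPM in sum against 462 to 1133 CPM in the other 3 samples. The part of these differences in the results below was not tested. A value without ADC/cmLumiOpto replicate 2 leaves out all of that sample, not its neutrophils alone, so it cannot tell their part.

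None of the 10 members had an adjusted p under 0.05 by the quasi-likelihood test of edgeR, the threshold that 0 of 15320 genes tested (0%) met. At an unadjusted p under 0.05 there were 4 members (Bax and Bad higher after ADC/cmLumiOpto, Bcl2 and Bcl2l11 lower), whereas 23.2% of all tested genes were under it, 11.0% higher and 12.2% lower. DESeq2 and the edgeR exact test each put 1 member, Bcl2l11, under an adjusted p of 0.05. Over all genes with an adjusted p, DESeq2 called 5.47% lower and 4.16% higher, and the exact test 3.68% lower and 3.96% higher. In 3 members (Bax, Bbc3 and Bad) both treated samples lay above both saline samples, against 28.1% of all tested genes, and in 2 (Bcl2 and Bcl2l11) both lay below, against 28.8%. The groups overlapped in the other 5 members and in 43.0% of all tested genes, so these shares were near those of all genes. The median log2 fold change of the members was 0.063, beside 0.028 for all tested genes.

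**Figure D1:**
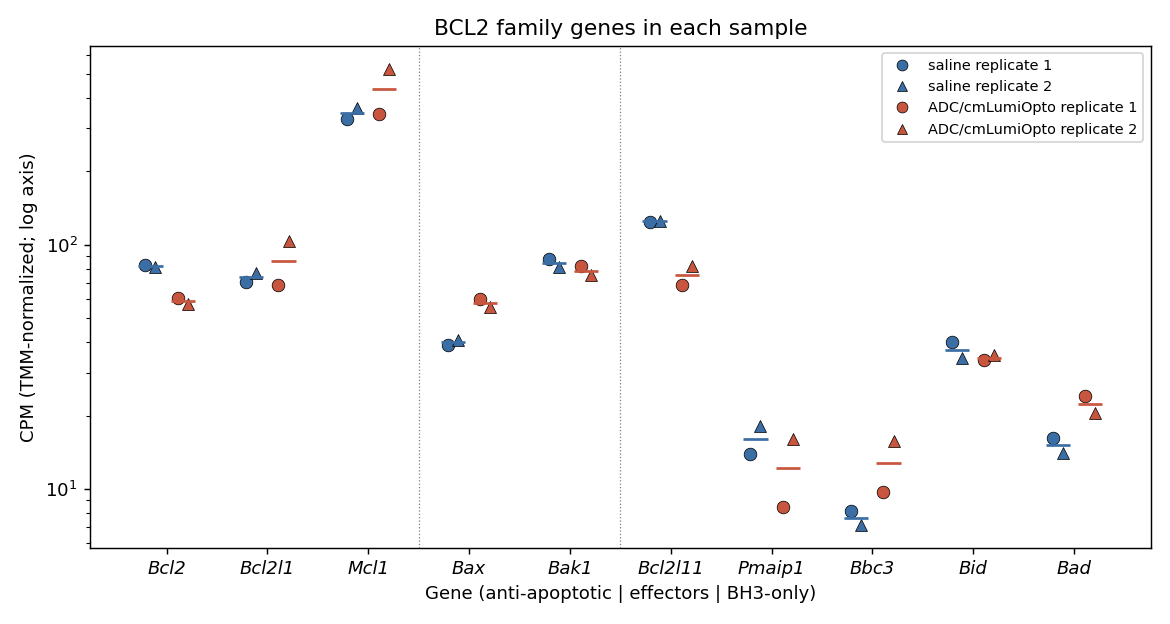
CPM of each BCL2 family gene (log axis) in the 2 saline samples (blue) and the 2 ADC/cmLumiOpto samples (red), with circles for replicate 1, triangles for replicate 2 and bars for group means. Bcl2 and Bcl2l11 lie lower and Bax and Bad higher in both treated samples, and Mcl1 and Bcl2l1 are higher in ADC/cmLumiOpto replicate 2 than in the other 3 samples.

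Levels were compared between genes as CPM per kilobase of the gene length listed in the table, which need not be that of the isoform used in this tissue. Mcl1 was the most abundant member in all 4 samples, at 96.3 and 106.5 CPM per kilobase with saline and 100.7 and 154.04 with ADC/cmLumiOpto. In the saline samples the effectors followed, Bak1 at 35.0 ± 1.91 (SD, n = 2) and Bax at 25.4 ± 0.857 (SD, n = 2) CPM per kilobase. Bcl2l1 at 16.1 ± 1.02 (SD, n = 2) and Bcl2l11 at 15.5 ± 0.198 (SD, n = 2) CPM per kilobase came next and overlapped. Below them were Bid at 10.5, Bcl2 at 8.95, Bad at 5.91, Pmaip1 at 5.87 and Bbc3 at 3.60 CPM per kilobase (means), of which only the neighbors Bad and Pmaip1 overlapped. After ADC/cmLumiOpto the order of the effectors was the other way round in both samples, with Bax at 38.0 and 35.5 and Bak1 at 34.0 and 31.2 CPM per kilobase. The lower part of the order was less distinct in the treated samples, where Bid, Bcl2l11 and Bad formed a run of overlapping neighbors, as did Bcl2, Bbc3 and Pmaip1. Mcl1 made up 79.8% and 80.6% of the summed level per kilobase of the 3 anti-apoptotic genes with saline and 82.3% and 84.2% with ADC/cmLumiOpto. Bcl2 made up 7.49% and 6.70% of it with saline and 5.43% and 3.43% with ADC/cmLumiOpto.

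Among the anti-apoptotic genes, Bcl2 was lower in both treated samples, and Mcl1 and Bcl2l1 differed most between the treated samples themselves. Bcl2 (ENSMUSG00000057329, chromosome 1, 106465908 to 106642004), the founding member, which acts on mitochondria and the endoplasmic reticulum, was at 82.7 and 81.2 CPM with saline and 60.8 and 57.4 CPM with ADC/cmLumiOpto. The replicates of each group lay close together and the groups did not overlap. The log2 fold change of Bcl2 was -0.47 (standard error 0.16, 95% interval -0.84 to -0.097; edgeR, adjusted p = 0.157). Mcl1 (ENSMUSG00000038612, chromosome 3, 95566099 to 95570487), a short-lived protein on which many myeloid cells and tumors depend, was at 329 and 364 CPM with saline and 344 and 527 CPM with ADC/cmLumiOpto. Only ADC/cmLumiOpto replicate 2 stood above the rest, and the other 3 samples lay within 35.2 CPM of each other. Mcl1 had an estimated log2 fold change of 0.33 (standard error 0.23, 95% interval -0.22 to 0.88, adjusted p = 0.420), and -0.015 without ADC/cmLumiOpto replicate 2. Bcl2l1 (ENSMUSG00000007659, chromosome 2, 152622588 to 152673648), which guards mitochondria in many epithelial and blood cells, was at 70.3 and 77.0 CPM with saline and 68.6 and 104 CPM with ADC/cmLumiOpto. As with Mcl1, ADC/cmLumiOpto replicate 2 lay above the rest, whereas replicate 1 lay below both saline samples. For Bcl2l1 the log2 fold change was 0.23 (standard error 0.23, 95% interval -0.32 to 0.77, adjusted p = 0.582), and -0.11 without ADC/cmLumiOpto replicate 2. In that sample the neutrophil markers were also highest, as given above.

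Of the effectors, Bax was higher and Bak1 within the spread. Bax (ENSMUSG00000003873, chromosome 7, 45111121 to 45116322), which moves from the cytosol to mitochondria when activated, was at 39.1 and 41.0 CPM with saline and 60.0 and 55.9 CPM with ADC/cmLumiOpto. The groups did not overlap, and the distance between them was several times that between replicates. For Bax the log2 fold change was 0.53 (standard error 0.16, 95% interval 0.15 to 0.91; edgeR, adjusted p = 0.139). Bak1 (ENSMUSG00000057789, chromosome 17, 27238784 to 27247983), which sits in the outer mitochondrial membrane, was at 87.4 and 80.9 CPM with saline and 81.9 and 75.2 CPM with ADC/cmLumiOpto. These values overlapped, and the log2 fold change was -0.099 (standard error 0.16, 95% interval -0.49 to 0.29, adjusted p = 0.740).

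The ratio of Bax to Bcl2, often used as a measure of readiness for apoptosis, was formed from the level per kilobase in each sample. On the log2 scale it was 1.46 and 1.55 with saline and 2.52 and 2.50 with ADC/cmLumiOpto, so the groups stood apart by 1.00 and the replicates by less than 0.1. With each sample left out in turn, the difference in log2 fold change between Bax and Bcl2 was between 0.96 and 1.05. It was 0.49 with the trend on gene length removed, as described below. The log2 ratio of both effectors to all 3 anti-apoptotic genes was -0.98 and -1.15 with saline and -0.76 and -1.45 with ADC/cmLumiOpto. Here the treated samples lay on either side of the saline samples, and Mcl1 made up most of the anti-apoptotic sum in all 4 samples. The log2 ratio of Bax to Mcl1 likewise overlapped, at -1.96 and -2.03 with saline and -1.40 and -2.12 with ADC/cmLumiOpto. These ratios are descriptions without a test, as 2 samples against 2 cannot give an exact two-sided permutation p under 0.333.

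The BH3-only genes differed in direction. Bcl2l11 was lower, Bad and Bbc3 were higher in both treated samples, and Pmaip1 and Bid overlapped. Bcl2l11 (ENSMUSG00000027381, chromosome 2, 127967958 to 128004467), which encodes a strong activator of Bax and Bak1 that binds every anti-apoptotic member, was at 124 and 126 CPM with saline and 68.7 and 82.3 CPM with ADC/cmLumiOpto. Both treated samples lay well below the saline samples, which were nearly equal. The log2 fold change of Bcl2l11 was -0.72 (standard error 0.17, 95% interval -1.13 to -0.31), the smallest p among the members (edgeR's quasi-likelihood test, adjusted p = 0.123). The adjusted p was 0.0119 in DESeq2, 0.0356 in the edgeR exact test and 0.0112 in edgeR without the filter on low counts, and the range over all settings was 0.0112 to 0.452. Of all tested genes, 7.28% had a lower log2 fold change. Bcl2l11 made up 36.7% and 38.4% of the summed level per kilobase of the 5 BH3-only genes with saline and 24.4% and 24.7% with ADC/cmLumiOpto. Over the 4 samples, the genes most like Bcl2l11 in centered log2 CPM were Fscn1, Qser1 and Prrc2a, with root-mean-square differences of 0.011, 0.013 and 0.016. They were picked as the smallest among all tested protein-coding genes, so small differences follow from the choice.

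Bad (ENSMUSG00000024959, chromosome 19, 6919229 to 6929267), whose protein binds BCL2 and BCL-XL unless growth factor signaling phosphorylates it, was at 16.2 and 14.0 CPM with saline and 24.0 and 20.5 CPM with ADC/cmLumiOpto. Both treated samples lay above both saline samples. For Bad the log2 fold change was 0.56 (standard error 0.22, 95% interval 0.029 to 1.09; edgeR, adjusted p = 0.199). The gene overlaps Gpr137 on the other strand, which had 172 and 186 counts with saline and 279 and 357 with ADC/cmLumiOpto. Without a stated strand setting, reads from their shared bases cannot be assigned with certainty. Bbc3 (ENSMUSG00000002083, chromosome 7, 16042318 to 16052130), a target of p53 and of forkhead factors, was the least abundant member in the saline samples, at 8.13 and 7.14 CPM, and was at 9.75 and 15.8 CPM in the treated samples. The groups did not overlap, but the treated samples lay farther from each other than the nearer one lay from the saline samples. The log2 fold change of Bbc3 was 0.74 (standard error 0.33, 95% interval -0.042 to 1.52, adjusted p = 0.233), and 0.35 without ADC/cmLumiOpto replicate 2.

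Pmaip1 (ENSMUSG00000024521, chromosome 18, 66591604 to 66598636), whose protein neutralizes MCL1, was at 13.9 and 18.2 CPM with saline and 8.44 and 16.0 CPM with ADC/cmLumiOpto. On the log2 scale it had the widest gap between treated samples of any member, and the groups overlapped. For Pmaip1 the log2 fold change was -0.39 (standard error 0.36, 95% interval -1.24 to 0.47, adjusted p = 0.541). It was -0.93 without ADC/cmLumiOpto replicate 2 and -0.0020 without ADC/cmLumiOpto replicate 1. Bid (ENSMUSG00000004446, chromosome 6, 120868891 to 120893814), which links death receptors to mitochondria once caspase-8 cleaves it, was at 40.1 and 34.4 CPM with saline and 33.7 and 35.3 CPM with ADC/cmLumiOpto. Its log2 fold change was -0.11 (standard error 0.17, 95% interval -0.53 to 0.31, adjusted p = 0.730). Bid overlaps Bcl2l13, another family gene, on the other strand.

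**Figure D2:**
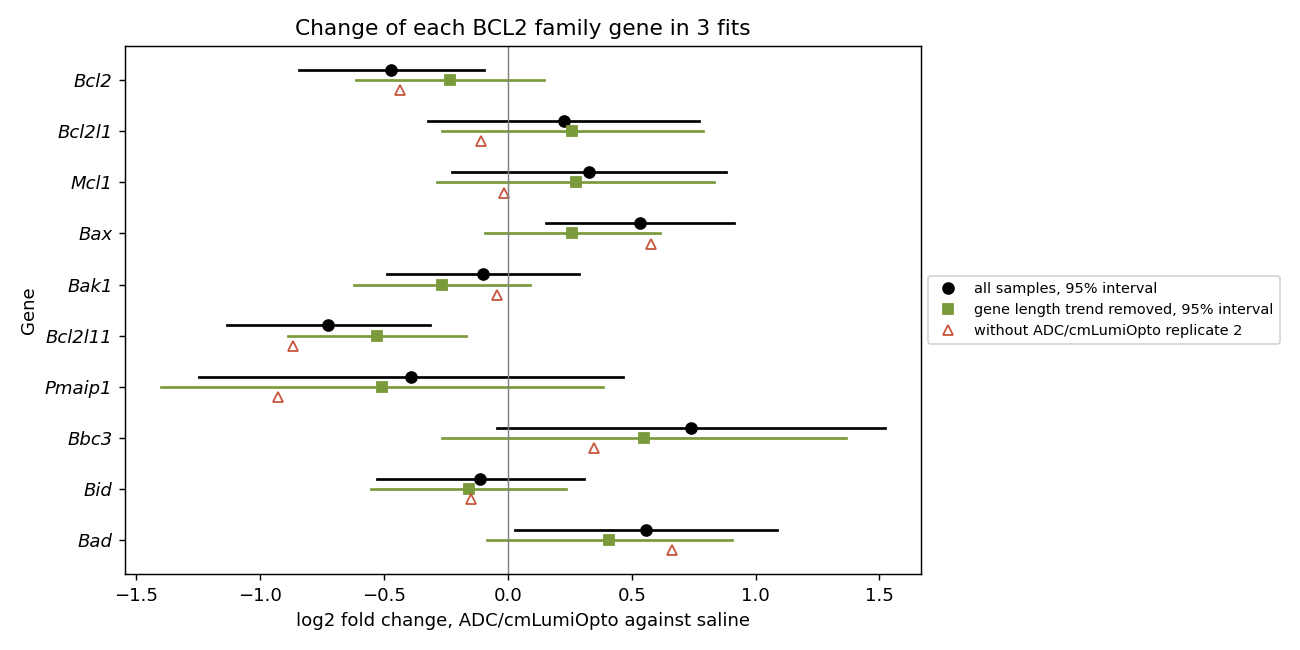
Log2 fold change of each BCL2 family gene, ADC/cmLumiOpto against saline, with all 4 samples (black circles), with the trend on gene length removed (green squares) and without ADC/cmLumiOpto replicate 2 (open triangles); lines are 95% intervals of the fits to all 4 samples. The interval of Bcl2l11 stays below 0 in both fits, whereas those of Bcl2, Bax and Bad reach 0 once the trend is removed.

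The 4 members with an unadjusted p under 0.05 also differed in gene length, and length went with the change across the whole table. Over all tested genes, which are not independent replicates, the Spearman correlation between gene length and log2 fold change was -0.34. The 2480 tested genes longer than 8000 bases had a median log2 fold change of -0.27, and the 5212 shorter than 3000 bases had one of 0.27. Bcl2 (9157 bases) and Bcl2l11 (8029 bases) were the longest members and both were lower, and Bax (1576 bases) was the shortest and was higher. Of the other members under 3000 bases, Bad (2558 bases) and Bbc3 (2124 bases) were higher in both treated samples, whereas Bak1 (2407 bases) and Pmaip1 (2732 bases) overlapped with log2 fold changes of -0.099 and -0.39. With the trend removed in each sample, the log2 fold changes were -0.53 for Bcl2l11 (adjusted p = 0.168), -0.23 for Bcl2 (adjusted p = 0.431), 0.26 for Bax (adjusted p = 0.356) and 0.41 for Bad (adjusted p = 0.310) in edgeR. Only Bcl2l11 of the 10 members then had an unadjusted p under 0.05.

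The gap between the treated samples separated the members into those that were alike in both and those that were not. The log2 ratio of ADC/cmLumiOpto replicate 2 to replicate 1 was 0.92 for Pmaip1, 0.69 for Bbc3, 0.61 for Mcl1 and 0.59 for Bcl2l1. For these 4 genes, between 78.5% and 89.6% of all tested genes had a smaller gap. It was -0.082 for Bcl2, -0.10 for Bax, -0.12 for Bak1, 0.064 for Bid, -0.22 for Bad and 0.26 for Bcl2l11. Of the 4 genes with wide gaps, 2 are anti-apoptotic and 2 BH3-only, and no effector is among them.

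**Figure D3:**
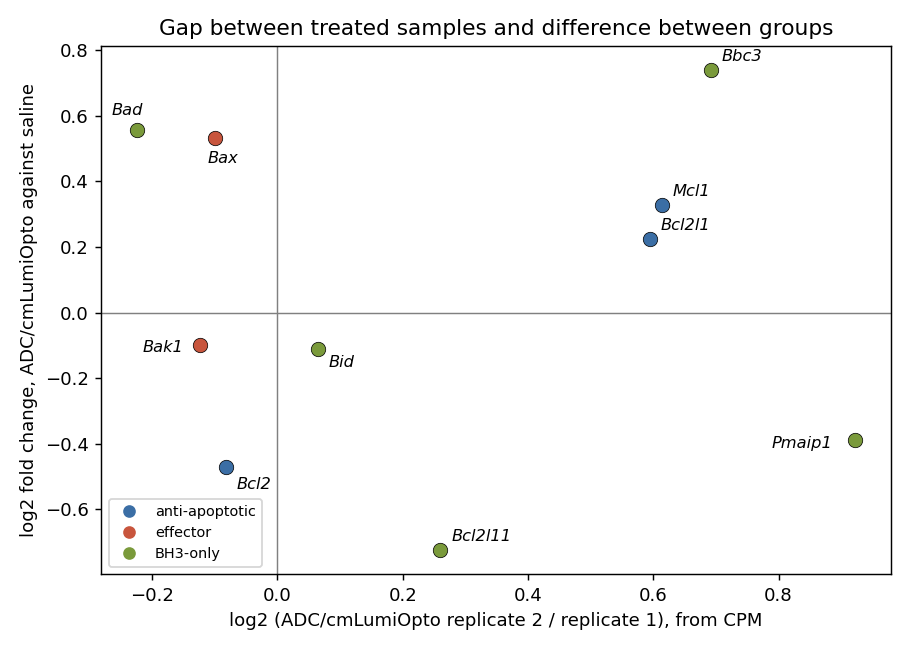
Each point is 1 BCL2 family gene, with the log2 ratio between the 2 ADC/cmLumiOpto samples on the x axis and the log2 fold change of ADC/cmLumiOpto against saline on the y axis, colored by class. Pmaip1, Bbc3, Mcl1 and Bcl2l1 lie at 0.59 or more on the x axis. Bcl2, Bax, Bad and Bcl2l11 lie at -0.082, -0.10, -0.22 and 0.26 on it. Their log2 fold changes are -0.47, 0.53, 0.56 and -0.72.

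Promoters are shown for the 3 members with the smallest p, Bcl2l11, Bax and Bcl2, and for Bbc3, whose promoter shares a forkhead motif with that of Bcl2l11. RefSeq windows of 300 bases on GRCm38.p6 were read for 9 members in 15 windows, since a gene can have several starts and its windows can overlap. Pmaip1 was left out, so its promoter was not searched and the counts below do not cover it. Capitals mark matches on either strand to a forkhead motif (TGTTTAC), an E-box (CACGTG) and a GC box (GGGCGG), read 5′ to 3′ along the gene.
Bcl2l11, chr2:128125788-128126087, + strand: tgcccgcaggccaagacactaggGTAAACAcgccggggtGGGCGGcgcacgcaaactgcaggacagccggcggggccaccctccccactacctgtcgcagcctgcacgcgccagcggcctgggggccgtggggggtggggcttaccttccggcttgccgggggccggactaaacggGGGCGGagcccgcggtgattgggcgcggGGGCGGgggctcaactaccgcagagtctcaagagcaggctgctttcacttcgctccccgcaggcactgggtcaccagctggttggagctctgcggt
Bbc3, chr7:16310011-16310310, + strand: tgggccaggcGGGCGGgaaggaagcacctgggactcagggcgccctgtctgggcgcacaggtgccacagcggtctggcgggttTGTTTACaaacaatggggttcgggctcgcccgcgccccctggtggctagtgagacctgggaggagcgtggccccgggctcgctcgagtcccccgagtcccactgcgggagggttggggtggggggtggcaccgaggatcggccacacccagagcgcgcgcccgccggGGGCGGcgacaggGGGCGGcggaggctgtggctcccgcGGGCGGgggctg
Bax, chr7:45466849-45467148, - strand: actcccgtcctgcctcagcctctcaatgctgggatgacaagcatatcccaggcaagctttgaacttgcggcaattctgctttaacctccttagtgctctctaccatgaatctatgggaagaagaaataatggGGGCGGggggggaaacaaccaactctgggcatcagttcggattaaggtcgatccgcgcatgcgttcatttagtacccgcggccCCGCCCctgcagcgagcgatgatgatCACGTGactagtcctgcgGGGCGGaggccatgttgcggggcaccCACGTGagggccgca
Bcl2, chr1:106714241-106714540, - strand: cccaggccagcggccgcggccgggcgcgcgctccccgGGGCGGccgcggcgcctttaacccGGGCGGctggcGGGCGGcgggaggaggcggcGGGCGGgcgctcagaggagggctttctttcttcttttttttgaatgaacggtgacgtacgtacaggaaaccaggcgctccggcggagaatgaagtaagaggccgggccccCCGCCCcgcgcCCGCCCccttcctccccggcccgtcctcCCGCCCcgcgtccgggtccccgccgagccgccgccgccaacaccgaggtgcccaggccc
The forkhead motif was found in 1 window each of Bcl2l11 and Bbc3 and in no window of the other 7 members matched, beside 3.65% of the 32851 windows in the table. The log2 fold changes of these 2 genes were -0.72 and 0.74, in opposite directions. The E-box was found in Bax, at 2 places, and in the third window of Bbc3, beside 7.15% of all windows. GC boxes were in 10 of the 15 windows and in 7 of the 9 genes, beside 35.7% of all windows. The GC content of the members' windows was 49.3% to 78%, with a median of 52.7% for all windows. A match is a description of the letters and not a sign of binding.

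Other genes of the family were taken from a list of 16, of which 14 were tested and 0 passed the threshold in edgeR. At an unadjusted p under 0.05 there were 5, all higher after ADC/cmLumiOpto, whereas 23.2% of all tested genes were under it and 11.0% were higher. The median log2 fold change of the 14 was 0.29 beside 0.028 for all tested genes. The genes with the smallest p were the 3 copies of Bcl2a1, anti-apoptotic genes of blood cells, and Bik, a BH3-only gene. Bcl2a1d had 328 and 248 counts with saline and 903 and 623 with ADC/cmLumiOpto (log2 fold change 1.13, standard error 0.29, adjusted p = 0.123). Bcl2a1b and Bcl2a1a had log2 fold changes of 1.33 and 0.99 (adjusted p = 0.123 and 0.132). The copies are nearly identical, so the split of reads among them is uncertain. Their sum was 36.0 and 29.5 CPM with saline and 87.1 and 55.2 CPM with ADC/cmLumiOpto. Both treated samples were above both saline samples, and replicate 1 was the higher one, unlike Mcl1 and the neutrophil markers. The summed T cell markers (4 genes) had the same order as the Bcl2a1 sum. So did the summed markers of alveolar type 2, alveolar type 1 and club cells, so this order was not particular to T cells. The T cell markers were at 17.9 and 5.66 CPM with saline and 46.1 and 21.9 CPM with ADC/cmLumiOpto, although 2 of the 4 genes overlapped. Of 3 leukocyte markers, Ptprc and Coro1a were also higher in both treated samples and Laptm5 overlapped, and their sum was 331 to 535 CPM with saline and 631 to 848 CPM with ADC/cmLumiOpto. None of the 3 was at 0, and the part of any of these cell types in the values of Bcl2a1 was not tested. DESeq2 put all 3 copies under an adjusted p of 0.05, and the exact test put Bcl2a1b and Bcl2a1d there, while these tests called 4.16% and 3.96% of all genes higher. Bik was low, with 23 and 10 counts with saline and 50 and 82 with ADC/cmLumiOpto (log2 fold change 1.68, standard error 0.54, adjusted p = 0.150). Bik (1591 bases) and the 3 Bcl2a1 copies (817 to 863 bases) are short genes. Tested genes shorter than 3000 bases had a median log2 fold change of 0.27. With the length trend removed, 6 of the 14 had an unadjusted p under 0.05 in edgeR, beside 3041 of 15320 tested genes. Bcl2l10 and Hrk were not tested. Bcl2l10 had 1 count in 1 saline sample and none elsewhere, and Hrk had 0 counts in all samples, which allows a level of up to 0.152 to 0.197 CPM.

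Downstream of the mitochondria, 16 genes of the apoptosome, the caspases and their inhibitors were listed and all 16 were tested. Of these, 0 passed the threshold in edgeR and 0 had an unadjusted p under 0.05, whereas 23.2% of all tested genes did. DESeq2 and the exact test also put 0 of them under an adjusted p of 0.05. The smallest p belonged to Cycs, the gene of cytochrome c, which is released through the openings that Bax and Bak1 form. It had 925 and 769 counts with saline and 1656 and 1233 with ADC/cmLumiOpto. The fold change of Cycs was 0.49 on the log2 scale (standard error 0.24, adjusted p = 0.268). Htra2 and Endog, which encode other proteins of the space between the mitochondrial membranes, had log2 fold changes of 0.31 and 0.67 (adjusted p = 0.306 and 0.366). For Xiap, an inhibitor of caspases, the value was -0.30 (adjusted p = 0.391).

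Upstream, 15 regulators of BCL2 genes and proteins were listed and 14 were tested. Again 0 passed the threshold in edgeR, and 4 had an unadjusted p under 0.05, all lower, whereas 23.2% of all tested genes were under it and 12.2% were lower. The median log2 fold change of the 14 was -0.37, beside 0.028 for all tested genes. Foxo1, a forkhead factor known to drive Bcl2l11 and Bbc3, had 1343 and 1237 counts with saline and 706 and 1000 with ADC/cmLumiOpto. Its log2 fold change was -0.91 (standard error 0.17, adjusted p = 0.116). Huwe1, which marks MCL1 for degradation, and Usp9x, which removes that mark, had log2 fold changes of -0.79 and -0.79 (adjusted p = 0.117 and 0.116). Ywhaz, a 14-3-3 protein that holds phosphorylated BAD in the cytosol, stood at -0.40 on the log2 scale (adjusted p = 0.209). DESeq2 and the exact test each put Foxo1, Huwe1 and Usp9x under an adjusted p of 0.05, and called 5.47% and 3.68% of all genes lower. Huwe1 (23507 bases), Usp9x (15051 bases) and Foxo1 (8665 bases) are long genes, whereas Ywhaz (4118 bases) is shorter. Tested genes longer than 8000 bases had a median log2 fold change of -0.27. With the length trend removed, 6 of the 14 had an unadjusted p under 0.05 in edgeR, beside 3041 of 15320 tested genes.

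**Figure D4:**
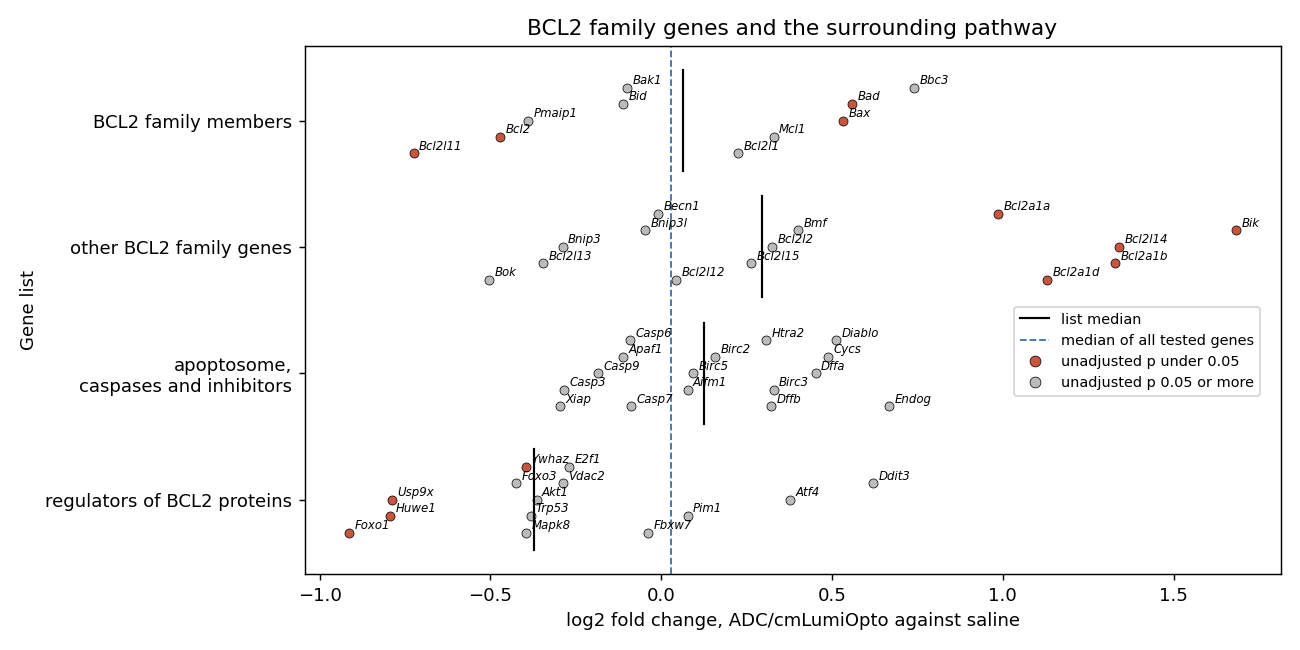
Log2 fold change of ADC/cmLumiOpto against saline (x axis) for each tested gene of the BCL2 family and of 3 surrounding lists (y axis, with points spread vertically for legibility), in red where the unadjusted p of edgeR was under 0.05. The black lines are list medians, between -0.37 for the regulators and 0.29 for the other family genes, and the dashed line is the median of all tested genes.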

How the data were processed

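The authors deposited counts, whole numbers of reads per gene without normalization, for 4 samples, with a length for each gene. The study's methods name HISAT2 and GRCm38, the submitters' processing notes name mm39, and the program that counted reads is not given in the sources used here. Gene positions in the table are printed as listed and differ from GRCm38, which the RefSeq promoter windows use. The study gives 4 biological samples per group, and 2 per group were analyzed here, grouped by their titles. No batch or date was given.

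The whole table was fitted with edgeR 4.0.16 in R 4.3.3 (filterByExpr, minimum count 10 and minimum total 15; TMM; estimateDisp, glmQLFit and glmQLFTest; prior count 0.125; Benjamini-Hochberg adjustment; threshold 0.05). Standard errors are the log2 fold change over the root of F, and 95% intervals use the total degrees of freedom. Alternatives were DESeq2 1.42.0, the exact test of edgeR, other factors and filters, a replicate block, removal of a smooth trend on gene length (lowess span 0.3) and each sample left out. The script was tested on simulated data. Members, lists and alternatives were chosen with earlier results of these data known. All members were named, and of each other list the 4 genes with the smallest p. For the member with the smallest p, the 3 protein-coding genes with the nearest profile were also named. Replicates differed by more than sampling noise.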

Additional observations from a re-analysis of the deposited data

How the results depend on the processing

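The number of BCL2 family members under an adjusted p of 0.05 was 0 in edgeR's quasi-likelihood test and 1 (Bcl2l11) in DESeq2, in the edgeR exact test and without the filter on low counts. For all genes these 3 settings gave 1332, 1170 and 2259 calls in place of 0. These were out of 13834, 15320 and 25563 genes with an adjusted p. For the other family genes they gave 3, 2 and 4, and for the regulators 3, 3 and 3. Each of these lists had 14 tested genes in the first 2 settings and 15 without the filter. Leaving out 1 sample at a time, the calls among all genes were 0 to 218 (218 without saline replicate 1, 10 without saline replicate 2, 5 without ADC/cmLumiOpto replicate 1), and those among the members and the lists were 0 throughout. When a group is left with 1 sample, that sample is assumed to vary like the other group. With a replicate block there were 607 calls among the 15320 genes tested. Of these, 0 were members, 1 (Bcl2a1d) was among the other family genes and 1 (Foxo1) among the regulators. The numbers were not taken to pair the samples, as deviations of same-numbered samples correlated at 0.098 over genes.

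Leaving out ADC/cmLumiOpto replicate 2 turned the log2 fold changes of Bcl2l1 and Mcl1 from 0.23 and 0.33 to -0.11 and -0.015 (0.49 and 0.60 without ADC/cmLumiOpto replicate 1), moved that of Bbc3 from 0.74 to 0.35 and that of Pmaip1 from -0.39 to -0.93, and the cause was not tested. Those of Bcl2l11, Bcl2, Bax and Bad kept their direction under all 12 alternatives, within -0.87 to -0.53, -0.51 to -0.23, 0.26 to 0.62 and 0.41 to 0.66. Bak1, Bid, Pmaip1 and Bbc3 also kept their direction, within -0.27 to -0.014, -0.22 to -0.0076, -0.93 to -0.0020 and 0.35 to 1.04. A kept direction was thus not particular to members with an unadjusted p under 0.05. With 2 samples per group, intervals of up to 1.71 log2 units (Pmaip1) limit what can be seen.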
